A study of Homo sapiens with 12 samples.

Results

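The enzymes that break down the branched-chain amino acids leucine, isoleucine and valine, with their regulators, were followed as a group of 10 genes among the 35238 gene rows of a bulk RNA sequencing table. The genes were chosen by name for their place in the pathway, and all 10 were found: the transaminases BCAT1 and BCAT2, the dehydrogenase subunits BCKDHA, BCKDHB and DBT, the kinase BCKDK and the phosphatase PPM1K that set the activity of that complex, and the leucine branch enzymes IVD, MCCC1 and MCCC2. The choice of these 10 genes was made with earlier results of these data known. The cells were HK-2, an established human kidney proximal tubule line, in 4 groups of 3 libraries, 12 in all. Every culture received 10 nM of an siRNA duplex by transfection, either a scrambled control (SCR) or a duplex against POLR2A (siB), the gene of the largest RNA polymerase II subunit. At the same time the cells received DMSO, the solvent, or AAI (aristolochic acid I) at 25 µM, a toxin of Aristolochia plants that forms DNA adducts, and RNA was taken after 24 hours. The knockdown rested on 1 duplex product and was transient. Group and replicate came from the sample titles, since the labels' treatment entry named DMSO even for samples titled AAI, and nothing in the labels said whether replicates were separate cultures, so p-values measure the spread between these libraries.

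Branched-chain amino acids are first transaminated to branched-chain keto acids, in the cytosol by the BCAT1 protein and in mitochondria by the BCAT2 protein. The keto acids are then committed to oxidation by the mitochondrial branched-chain keto acid dehydrogenase complex, which the kinase BCKDK switches off by phosphorylation and the phosphatase PPM1K switches back on. The proximal tubule relies on mitochondrial oxidation for energy, and the transcription factor KLF6 has been linked to the breakdown of these amino acids in tubule injury.

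Values are CPM, reads of a gene scaled to a library total of 1000000. Depth ran from 15844015 to 42805294 reads, and the members were covered by 64 reads (the lowest value of PPM1K) to 7125 reads (the highest of BCKDK) in a library, so none was near the limit that 0 reads would allow (0.0701 to 0.189 CPM over the libraries, counting error only). POLR2A checked the labels: it stood at 258 to 306 CPM in SCR DMSO and 138 to 143 CPM in siB DMSO, and at 673 to 729 CPM in SCR AAI and 210 to 266 CPM in siB AAI. All 6 kidney epithelial markers were at 1 CPM or more in every library, against 3 of 12 proximal tubule markers (SLC5A2, MME and GGT1), and the organic anion transporter SLC22A6 had 0 reads in all libraries of 3 groups and at most 0.0631 CPM in any library. The summed proximal tubule markers ran from 131 to 158 CPM in SCR DMSO, 118 to 155 in SCR AAI, 185 to 204 in siB DMSO and 154 to 158 in siB AAI. GGT1 made up most of these sums, with means of 130, 112, 175 and 121 CPM in that order. The means of SLC5A2 were 3.75, 15.1, 5.11 and 16.8 CPM and those of MME 8.86, 4.98, 10.1 and 7.33 CPM. The summed epithelial markers ran from 1521 to 1942 CPM in SCR DMSO and from 1406 to 1624 in SCR AAI, and from 1611 to 1737 in siB DMSO and from 1238 to 1327 in siB AAI. Of the 3 markers each of leukocytes, endothelium, fibroblasts and other nephron segments, CD68 and COL1A1 alone were at 1 CPM or more in all 12 libraries, and the T cell marker CD3E had 0 reads in all. Summed, the endothelial list ran from 1.06 to 1.40 CPM in siB DMSO and 3.64 to 5.55 in siB AAI, the other nephron list from 0 to 0.167 and 1.71 to 2.77, and the fibroblast list from 32.6 to 35.8 and 11.7 to 22.9. The fibroblast list also ran from 30.5 to 53.5 CPM in SCR DMSO and 21.9 to 26.1 in SCR AAI. The part of these shifts in the results was not tested. SCR DMSO replicate 2 stood apart: the mean log2(CPM + 1) of genes over 100 kb minus that of genes under 30 kb was -0.44 in it, against 0.48 and 0.32 in its fellow replicates. Results of several members are also given without it.

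The promoters of the 3 members with the largest changes are shown because one of them rose while the others fell. The windows cover 250 bases before and 50 bases after the RefSeq start on GRCh38.p14, written 5′ to 3′ along the gene's strand, and capitals mark the GC box GGGCGG or its reverse complement CCGCCC, a motif that SP and Krüppel-like factors are known to bind.
BCKDK, chr16:31108136-31108435, plus strand: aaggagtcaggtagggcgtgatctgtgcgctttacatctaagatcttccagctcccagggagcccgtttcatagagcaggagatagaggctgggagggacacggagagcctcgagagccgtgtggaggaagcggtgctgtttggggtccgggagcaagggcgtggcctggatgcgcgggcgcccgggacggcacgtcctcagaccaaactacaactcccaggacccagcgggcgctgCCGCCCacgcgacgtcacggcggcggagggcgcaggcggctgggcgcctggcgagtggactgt
BCKDHB, chr6:80106421-80106720, plus strand: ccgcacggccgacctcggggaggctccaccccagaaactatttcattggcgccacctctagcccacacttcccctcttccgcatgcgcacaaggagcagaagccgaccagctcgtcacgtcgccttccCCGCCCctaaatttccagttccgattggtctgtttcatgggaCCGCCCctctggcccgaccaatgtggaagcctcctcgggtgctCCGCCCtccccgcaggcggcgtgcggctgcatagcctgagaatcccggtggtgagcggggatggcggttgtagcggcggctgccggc
DBT, chr1:100249785-100250084, minus strand: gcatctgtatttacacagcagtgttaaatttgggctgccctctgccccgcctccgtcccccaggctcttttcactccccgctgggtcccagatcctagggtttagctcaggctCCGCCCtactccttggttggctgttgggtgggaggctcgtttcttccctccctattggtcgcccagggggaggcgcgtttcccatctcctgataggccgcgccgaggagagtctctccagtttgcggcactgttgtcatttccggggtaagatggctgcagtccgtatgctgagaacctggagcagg
The window of BCKDHB held 3 GC boxes and those of BCKDK and DBT held 1 each, so the gene that rose and the genes that fell shared the letters. The BCKDK window, set by the RefSeq start, lies inside the GENCODE gene, which begins upstream at 31106107, so a start further upstream is not covered. RefSeq entries were found for 9 of the 10 members (15 entries in all, none for BCAT2). The GC box was in 7 of the 15 entries, against 45.0% of 35116 promoters of the same length, and CACCC (or GGGTG), a shorter Krüppel-like factor motif whose matches may share bases with a GC box, was in 10 of the 15, against 59.9%. BCAT1 and MCCC1 each had several of these entries. By member, the GC box was in an entry of 7 of the 9 and CACCC in an entry of 6, with no share by gene computed for comparison. These matches are letters in a window and say nothing about binding.

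The members differed widely in level and in gene structure. Per kilobase of the canonical transcript, mean levels in SCR DMSO ran from 64.7 ± 18.5 CPM per kb for BCKDK and 54.6 ± 20.2 for BCAT2 (SD, n = 3), through 21.4 ± 2.87 for BCKDHA, 15.7 ± 1.62 for MCCC2, 11.4 ± 1.55 for IVD, 10.9 ± 3.75 for MCCC1, 7.39 ± 2.93 for BCAT1, 3.99 ± 1.78 for BCKDHB and 1.61 ± 1.31 for DBT, to 0.967 ± 0.459 for PPM1K. In that order BCAT2 was apart from BCKDHA, BCKDHA from MCCC2 and MCCC2 from IVD in every library, while all other neighbours overlapped. The alpha subunit gene BCKDHA therefore stood above BCKDHB and DBT, and the kinase above the phosphatase, in SCR DMSO cells. In GENCODE annotation on hg38 the members span from 6.7 kb for BCKDK (chr16:31106107-31112791, plus strand) to 239.6 kb for BCKDHB (chr6:80106647-80346270, plus strand). DBT spans 62.9 kb (chr1:100186919-100249834, minus strand), BCKDHA 27.2 kb (chr19:41397808-41425002, plus strand) and IVD 30.5 kb (chr15:40405485-40435947, plus strand). BCKDHA overlaps another annotated coding gene on the same strand, so its counts may include reads of that gene.

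**Figure D1:**
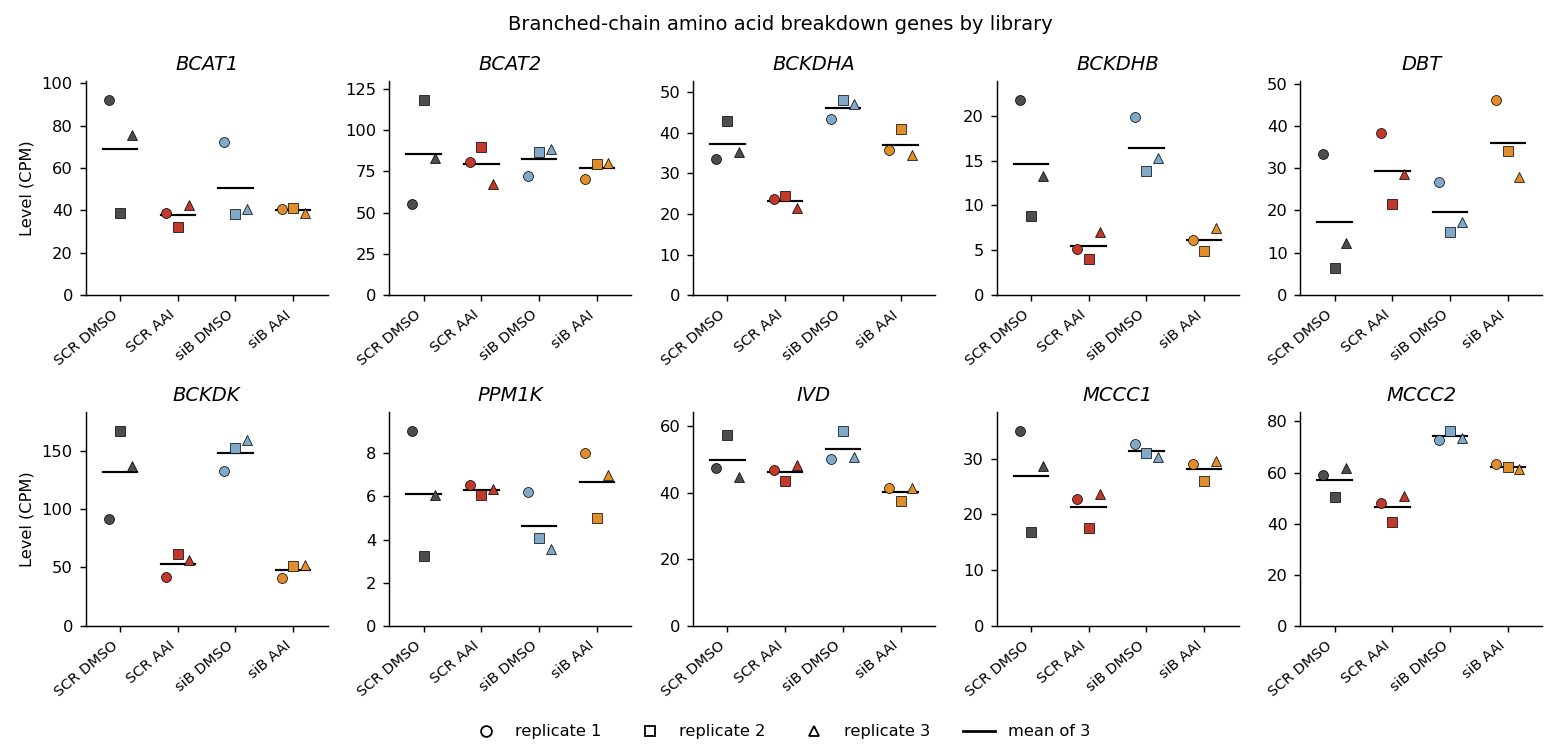
Level of each of the 10 genes in CPM (vertical axes, from 0) in the 4 groups, with 1 point for each of the 3 replicates and a line at their mean. BCKDK and BCKDHB sit lower in all AAI libraries than in all DMSO libraries of the same siRNA, and SCR DMSO shows the largest SD for all 10 genes.

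The first question was how AAI moved these genes in SCR cells and in POLR2A knockdown cells. The kinase BCKDK fell in both: 2.41-fold in SCR and 3.03-fold in siB. The E1 beta subunit gene BCKDHB fell 2.43-fold in siB cells. Its 2.34-fold lower value in SCR cells missed the threshold in the main limma fit and passed in some alternative fits. DBT rose 1.81-fold and IVD fell 1.31-fold in siB cells. A gene was said to rise or fall when limma's test gave an adjusted p under 0.05 (Benjamini-Hochberg over all genes tested), and folds are on the CPM + 1 scale. In bulk RNA, fewer cells of a type and less RNA per cell cannot be told apart. In SCR cells 1 of the 10 members fell and 0 rose by limma, where 3.36% of 14228 genes tested were lowered and 8.98% raised. By unadjusted p under 0.05, 3 members differed, where 27.0% of genes did. With voom, run on the recovered reads, BCKDK alone fell and 0 rose, where 2.84% of genes were lowered and 8.27% raised. The median log2 change was -0.28 over the members and 0.18 over all genes tested. With a 2-fold limit added, the same 1 gene passed, where 10.5% of genes did in either direction. All AAI libraries lay below all DMSO libraries for 3 members and above for 0, where 33.8% of genes did not overlap either way. In siB cells 3 of the 10 fell, where 21.8% of 14928 genes were lowered, and 1 rose, where 30.4% were raised. Of these, 2 passed the 2-fold limit, where 19.7% of genes did, and the groups did not overlap for 7 members (6 below and 1 above), where 60.8% of genes did not. The median log2 change was -0.25 over the members and 0.10 over all genes. The members' counts of groups that did not overlap were near the background in both.

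**Figure D2:**
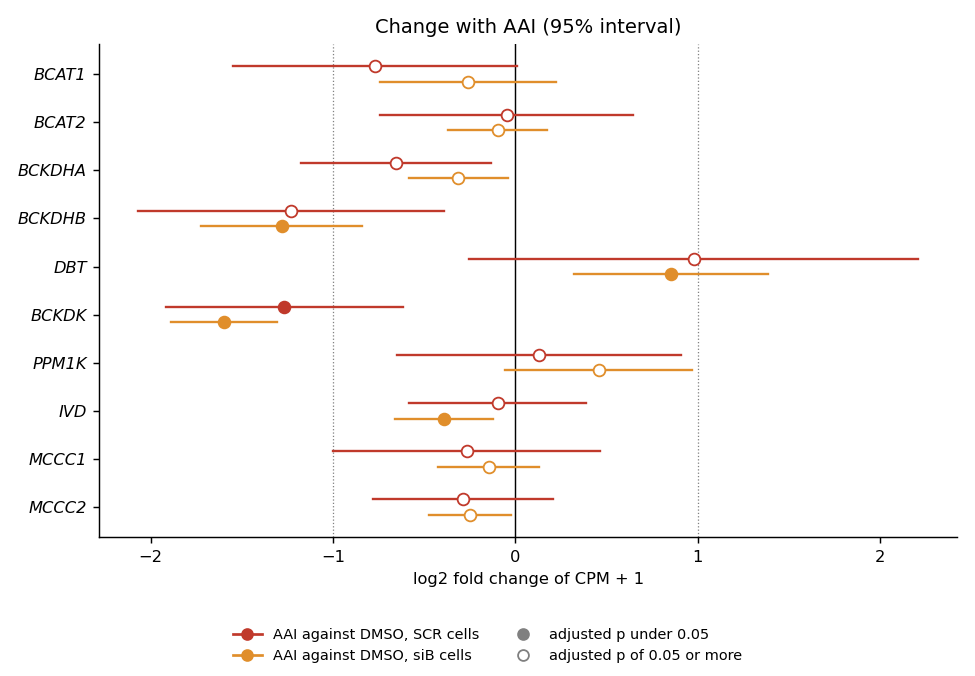
Change of each of the 10 genes with AAI as a log2 fold change of CPM + 1 (horizontal axis), with 95% confidence intervals from limma, in SCR and siB cells; filled points have an adjusted p under 0.05 and dotted lines mark 2-fold. BCKDK is filled in both, at -1.27 and -1.60, and DBT is the one member filled to the right of 0.

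The transaminases did not pass in either background. BCAT1 stood at 92.0, 38.7 and 75.9 CPM in SCR DMSO and at 38.7, 32.0 and 42.8 CPM in SCR AAI. Replicate 2 of SCR DMSO alone lay within the AAI range. The log2 change was -0.77 (SE 0.34, adjusted p = 0.19) with it and -1.13 (adjusted p = 0.0046) without it. With every library kept and the replicate number as a block, limma's adjusted p was 0.053. In siB cells BCAT1 stood at 72.4, 38.5 and 40.6 CPM with DMSO and at 40.9, 41.3 and 38.8 CPM with AAI, which overlapped (log2 change -0.26, adjusted p = 0.34). BCAT2, the mitochondrial form, overlapped in both backgrounds. It stood at 55.1, 118 and 83.0 CPM in SCR DMSO and 80.9, 89.7 and 67.5 CPM in SCR AAI, a log2 change of -0.05 with a 95% interval from -0.74 to 0.65. In siB cells BCAT2 stood at 72.0, 87.1 and 88.6 CPM with DMSO and 70.6, 79.8 and 80.4 CPM with AAI, a log2 change of -0.10 with a narrower interval from -0.37 to 0.17.

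Of the genes that encode the dehydrogenase complex, BCKDHB had the largest decrease. BCKDHB, the beta subunit of its decarboxylase, stood at 21.7, 8.88 and 13.3 CPM in SCR DMSO and at 5.19, 3.99 and 7.09 CPM in SCR AAI. Each AAI library lay below each DMSO library, yet at a log2 change of -1.23 (SE 0.36) the adjusted p was 0.067. Same-numbered libraries of these groups deviated together, and with the replicate number as a block the adjusted p was 0.022. In limma it was 0.013 with median-ratio scaling and 0.010 when all 4 groups shared 1 estimate of the spread. Without SCR DMSO replicate 2 the change was -1.52 (adjusted p = 0.0045). In siB cells BCKDHB stood at 19.9, 13.9 and 15.3 CPM with DMSO and at 6.12, 4.89 and 7.45 CPM with AAI, a log2 change of -1.28 (SE 0.20, adjusted p = 5.9e-04 in limma). The groups were apart in siB cells as well, and the change kept its side of the threshold under all 15 alternatives.

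DBT encodes the core transacylase to which the other subunits bind. Among the subunit genes that are members (BCKDHA, BCKDHB and DBT), DBT alone had a higher mean under AAI. It stood at 33.4, 6.40 and 12.4 CPM in SCR DMSO and at 38.3, 21.4 and 28.5 CPM in SCR AAI. The groups overlapped through SCR DMSO replicate 1, and the log2 change was 0.98 (SE 0.53, adjusted p = 0.29 in limma). With the replicate block the adjusted p was 0.056. The change depended on which DMSO library was left out. It was 1.58 (adjusted p = 0.032) without replicate 1 and 0.47 (adjusted p = 0.41) without replicate 2. In siB cells DBT stood at 26.8, 15.0 and 17.2 CPM with DMSO and at 46.0, 34.1 and 28.0 CPM with AAI. Every AAI library was above every DMSO library, and DBT rose by 0.85 on the log2 scale (SE 0.24, adjusted p = 0.013 in limma). That call was lost when all 4 groups shared 1 estimate of the spread (adjusted p = 0.18).

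BCKDHA, the alpha subunit that carries the sites BCKDK phosphorylates, stood at 33.6, 43.0 and 35.2 CPM in SCR DMSO and at 23.7, 24.4 and 21.5 CPM in SCR AAI. The groups were apart, and at a log2 change of -0.66 (SE 0.22) the adjusted p was 0.11 in limma. The adjusted p was 0.060 with the replicate block and 0.0075 when all 4 groups shared 1 estimate of the spread. BCKDHA stood in siB cells at 43.5, 48.0 and 47.1 CPM with DMSO and at 35.7, 40.9 and 34.6 CPM with AAI, again apart, with a log2 change of -0.31 (SE 0.12, adjusted p = 0.053).

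The kinase BCKDK had the highest mean per kilobase in DMSO cells and was the one member that fell in both backgrounds. It stood at 91.6, 166 and 137 CPM in SCR DMSO and at 41.7, 61.3 and 56.6 CPM in SCR AAI. Every AAI library was below every DMSO library, and BCKDK fell by 1.27 on the log2 scale (SE 0.28, adjusted p = 0.024 in limma, 0.0034 with the replicate block). Without SCR DMSO replicate 2 it fell by 1.08 (adjusted p = 0.011), but the adjusted p was 0.094 without SCR DMSO replicate 3 and 0.10, 0.063 and 0.083 without SCR AAI replicates 1, 2 and 3, at log2 changes between -1.38 and -1.11. With siB, BCKDK stood at 132, 152 and 159 CPM with DMSO and at 41.1, 51.6 and 51.7 CPM with AAI. BCKDK fell there by 1.60 on the log2 scale (SE 0.13, adjusted p = 1.5e-05 in limma), and the gap between the groups was wider than the range within either. The phosphatase PPM1K, which acts on the same sites in the opposite direction, was the scarcest member per kilobase. It stood at 9.01, 3.22 and 6.07 CPM in SCR DMSO and at 6.52, 6.07 and 6.34 CPM in SCR AAI (log2 change 0.13, adjusted p = 0.84). With siB, PPM1K stood at 6.20, 4.06 and 3.57 CPM with DMSO and at 8.02, 4.98 and 6.97 CPM with AAI (log2 change 0.46, 95% interval -0.06 to 0.97, adjusted p = 0.12), and the groups overlapped in both backgrounds.

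In the leucine branch, IVD encodes the dehydrogenase that acts on isovaleryl-CoA, and MCCC1 and MCCC2 encode the subunits of the carboxylase that follows. IVD stood at 47.3, 57.4 and 44.7 CPM in SCR DMSO and at 46.9, 43.6 and 48.2 CPM in SCR AAI, which overlapped (log2 change -0.10, adjusted p = 0.80). With siB, IVD stood at 49.97, 58.4 and 50.7 CPM with DMSO and at 41.5, 37.5 and 41.4 CPM with AAI. The siB groups were apart, and IVD fell by 0.39 on the log2 scale (SE 0.12, adjusted p = 0.020 in limma), a call lost without siB AAI replicate 2 (0.067), siB DMSO replicate 2 (0.11) or siB DMSO replicate 3 (0.054) and with all 4 groups in the fit (0.057). MCCC1 stood at 34.9, 16.8 and 28.7 CPM in SCR DMSO and at 22.8, 17.6 and 23.6 CPM in SCR AAI, and at 32.7, 31.0 and 30.3 CPM in siB DMSO and 29.0, 26.0 and 29.6 CPM in siB AAI. The SCR groups overlapped and the siB groups were apart by a small gap, and neither log2 change passed (-0.27, adjusted p = 0.63 in SCR, and -0.15, adjusted p = 0.34 in siB, by limma). MCCC2 stood at 59.0, 50.4 and 61.6 CPM in SCR DMSO and 48.3, 40.5 and 50.9 CPM in SCR AAI, and at 72.6, 76.1 and 73.6 CPM in siB DMSO and 63.5, 62.1 and 61.3 CPM in siB AAI. Its log2 changes were -0.29 (adjusted p = 0.43) in SCR and -0.25 (adjusted p = 0.063) in siB, by limma.

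Ratios of a pair of members within a library do not depend on how libraries were scaled. These ratios were chosen after the values were seen and carry no test. The ratio of DBT to BCKDHB CPM values was 1.54, 0.721 and 0.928 in SCR DMSO and 7.37, 5.37 and 4.03 in SCR AAI, a 5.37-fold higher geometric mean. In siB cells it was 1.34, 1.08 and 1.12 with DMSO and 7.52, 6.96 and 3.76 with AAI, a 4.94-fold higher geometric mean. The AAI libraries were apart from the DMSO libraries in both backgrounds, SCR DMSO replicate 2 included. The ratio of BCKDK to PPM1K, the kinase to the phosphatase, went from 10.2, 51.6 and 22.6 in SCR DMSO to 6.41, 10.1 and 8.92 in SCR AAI, 2.74-fold lower, and the gap between 10.2 and 10.1 was narrow. In siB cells it went from 21.3, 37.4 and 44.5 to 5.13, 10.4 and 7.42, 4.48-fold lower, and the groups were well apart. The ratio of BCKDHB to BCKDHA was 2.14-fold lower with AAI in siB cells, apart, and 1.62-fold lower in SCR cells, where the groups overlapped. By contrast the ratio of MCCC1 to MCCC2, subunits of 1 enzyme, stayed between 0.407 and 0.483 in 10 of the 12 libraries, and SCR DMSO replicates 1 (0.592) and 2 (0.333) lay outside.

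**Figure D3:**
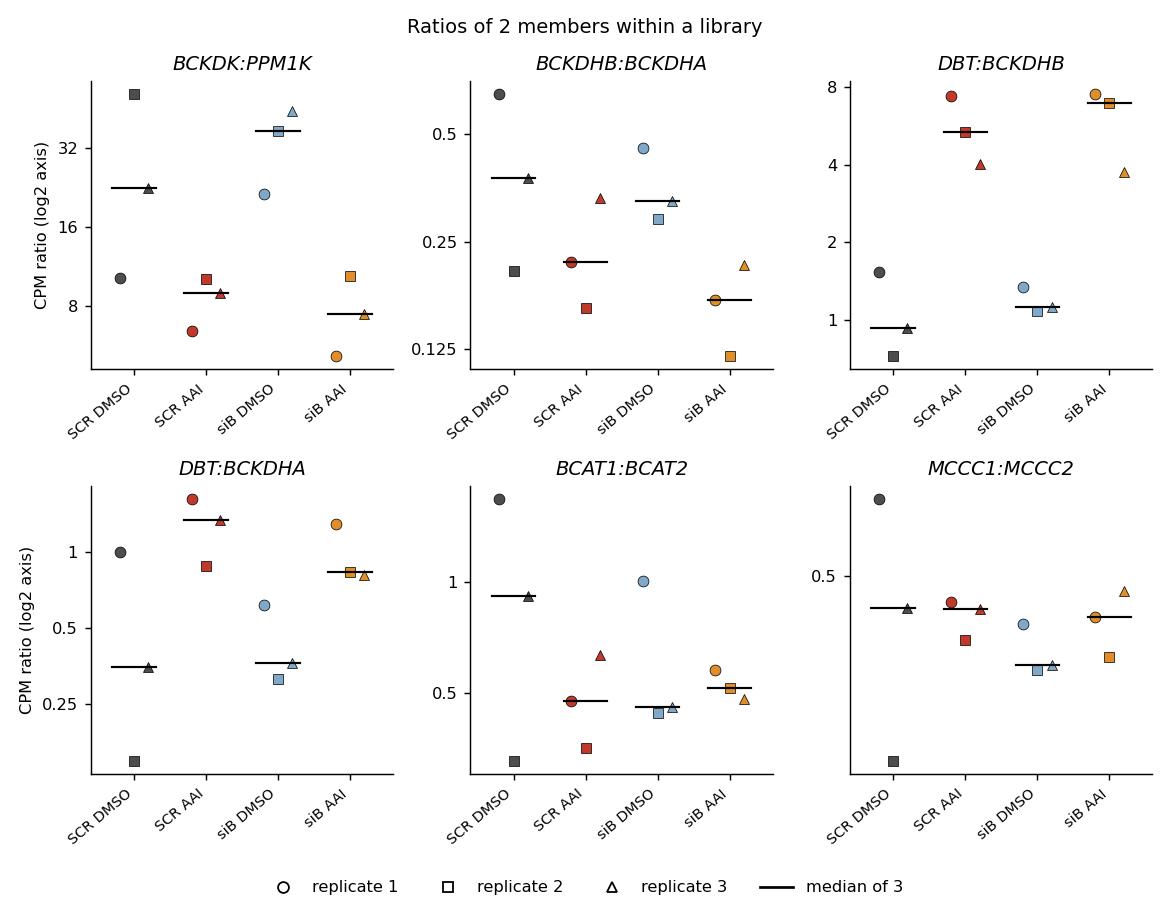
Ratio of the CPM values of a pair of genes within each library (vertical axes on a log2 scale) in the 4 groups, with a point for each of the 3 replicates and a line at their median. DBT:BCKDHB is at 0.721 to 1.54 in the DMSO libraries and 3.76 to 7.52 in the AAI libraries.

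Another question was what POLR2A knockdown changed under AAI and in DMSO. These comparisons share libraries with those above (SCR AAI, for one, enters both), so their values are set side by side and not counted as separate support. Under AAI, BCKDHA was 1.57-fold higher in siB than in SCR cells and was the one member that passed: 1 of 10 rose, where 5.49% of 14946 genes were raised, and 0 fell, where 3.79% were lowered. By limma's unadjusted p, 3 members were under 0.05, where 25.5% of genes were. With voom 1 member rose and 0 fell, where 5.17% of genes were raised and 3.49% lowered. None of the members reached 2-fold, where 3.67% of genes did. The groups did not overlap for 4 members, where 30.8% of genes did not. The median log2 difference was 0.13 over the members and 0.00 over all genes. BCKDHA stood at 23.7, 24.4 and 21.5 CPM in SCR AAI and 35.7, 40.9 and 34.6 CPM in siB AAI, and it rose by 0.65 on the log2 scale (SE 0.17, adjusted p = 0.031 in limma, 3.8e-04 with the replicate block). The groups were wide apart, but the adjusted p was 0.11 without SCR AAI replicate 3 and 0.071, 0.14 and 0.091 without siB AAI replicates 1, 2 and 3. MCCC1 and MCCC2 were also higher in every siB AAI library than in every SCR AAI library. Their log2 differences were 0.40 (SE 0.18, adjusted p = 0.20) and 0.42 (SE 0.16, adjusted p = 0.12) by limma, and both passed with the replicate block (0.047 and 0.024), which makes 3 of the 10, where 15.2% of genes were raised and 28.9% passed either way with the block. The lowest adjusted p over all genes in limma was 2.1e-40 with the block here, against 5.8e-04 without it. Blocked p-values of this comparison, that of BCKDHA included, are therefore likely too small and add no support. IVD was the one member lower in every siB AAI library, at -0.20 (adjusted p = 0.46). BCKDK differed between the AAI groups by -0.13 with a 95% interval from -0.54 to 0.27, and BCKDHB by 0.17 with an interval from -0.35 to 0.69.

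**Figure D4:**
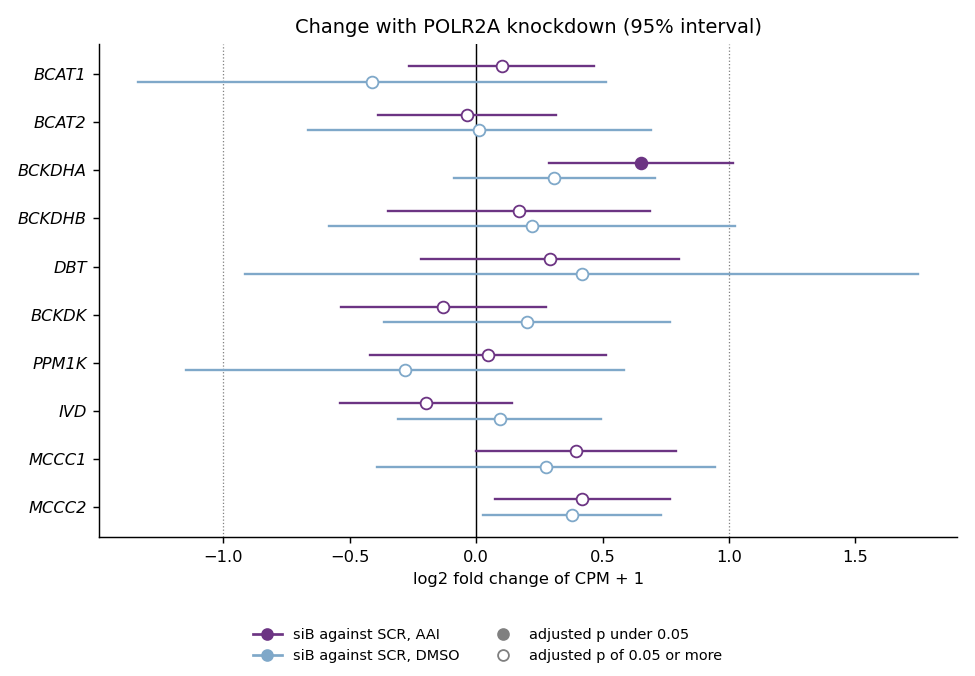
Difference of each of the 10 genes between siB and SCR cells as a log2 fold change of CPM + 1 (horizontal axis), with 95% confidence intervals from limma, under AAI and in DMSO; filled points have an adjusted p under 0.05. BCKDHA under AAI, at 0.65, is the one filled point, and DBT in DMSO has the widest interval, from -0.92 to 1.75.

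In DMSO, no member passed by limma, where 0.0% of 13606 genes did. Without adjustment limma's p was under 0.05 for 644 genes, MCCC2 being the 1 member among them, and voom also gave 0 calls. POLR2A itself, 2.02-fold lower and apart in every library, had an adjusted p of 0.51 there. BCKDHA and MCCC2 were higher in every siB DMSO library than in every SCR DMSO library (log2 differences 0.31 and 0.38, neither of which passed), 2 of 10 members, where 11.9% of genes did not overlap. The difference between the AAI change in siB and in SCR cells was tested as an interaction. None of the 10 passed, where 1.61% of 15325 genes did. No member had an unadjusted p under 0.05 in limma, voom gave 0 calls over all genes, and the lowest adjusted p was 0.57 for BCKDHA (0.34 on the log2 scale, 95% interval -0.12 to 0.81). For BCKDK the interaction was -0.33 with an interval from -1.01 to 0.35, for BCKDHB -0.05 from -0.98 to 0.88, for DBT -0.12 from -1.53 to 1.28 and for IVD -0.29 from -0.74 to 0.16. The calls that siB cells had and SCR cells lacked, for BCKDHB, DBT and IVD, were therefore not shown to differ between the backgrounds.

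The rest of the pathway was read from a list of 20 further genes, of which 19 were tested (HMGCLL1 was too low). With AAI in SCR cells 1 of the 19 rose and 0 fell by limma, against 8.98% and 3.36% of all genes, and 5 were under an unadjusted p of 0.05, against 27.0%. With AAI in siB cells 3 rose and 5 fell, against 30.4% and 21.8%, so these counts were near or below the background. The median log2 change over the list was -0.04 in SCR and 0.03 in siB. MCEE, the epimerase of methylmalonyl-CoA shared by isoleucine and valine, rose in both: it stood at 2.82, 1.71 and 1.65 CPM in SCR DMSO and 6.02, 4.98 and 6.34 CPM in SCR AAI (log2 change 1.16, adjusted p = 0.019 in limma). In siB cells MCEE stood at 2.52, 3.07 and 2.79 CPM with DMSO and 5.62, 5.68 and 7.18 CPM with AAI (0.91, adjusted p = 0.0018 in limma). The SCR call of MCEE held with the replicate block (adjusted p = 0.014 in limma). That call was lost without SCR AAI replicate 1, 2 or 3 or SCR DMSO replicate 3 (adjusted p between 0.055 and 0.090). It was also lost with no filter on low values (0.064). MMAB, which makes the cobalamin cofactor of the next step, fell by 0.85 in siB cells, and PCCB, a subunit of propionyl-CoA carboxylase, by 0.51 (adjusted p = 5.2e-04 and 0.0040 in limma). The valine branch enzymes HIBADH and ALDH6A1 fell in siB cells by 0.58 and 0.56 (adjusted p = 0.029 and 0.012 in limma). HIBADH lost its call without any of the siB libraries but siB AAI replicate 1 (0.055 to 0.10), and ALDH6A1 without siB AAI replicate 3 (0.053) or siB DMSO replicate 3 (0.052). Both also lost it with all 4 groups in the fit (0.17 and 0.11). SLC25A44, the carrier that brings branched-chain amino acids into mitochondria, rose there by 0.66 (adjusted p = 6.1e-04 in limma), from 56.6, 55.6 and 58.3 CPM with DMSO to 85.5, 91.9 and 94.1 CPM with AAI. MMAB, PCCB, HIBADH, ALDH6A1 and SLC25A44 moved the same way with AAI in SCR cells, where none of them passed. Their log2 changes in SCR cells were -0.65, -0.53, -0.82, -0.93 and 0.66 in that order (adjusted p = 0.13, 0.18, 0.19, 0.12 and 0.13 in limma). The SCR groups overlapped for HIBADH and were apart for the others. Under AAI, ACADSB, an acyl-CoA dehydrogenase of the isoleucine branch, was 0.80 higher on the log2 scale in siB than in SCR cells (adjusted p = 0.030 in limma), the 1 list gene that passed. That call held with the replicate block (6.1e-05), but the blocked p-values of this comparison are likely too small. The call of ACADSB was lost without any of these libraries but SCR AAI replicate 1 (0.055 to 0.098). With all 4 groups in the fit (0.21) and with no filter on low values (0.065) it was lost as well. No list gene passed in DMSO or in the interaction by limma, and 0 of them had an unadjusted p under 0.05 in either.

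**Figure D5:**
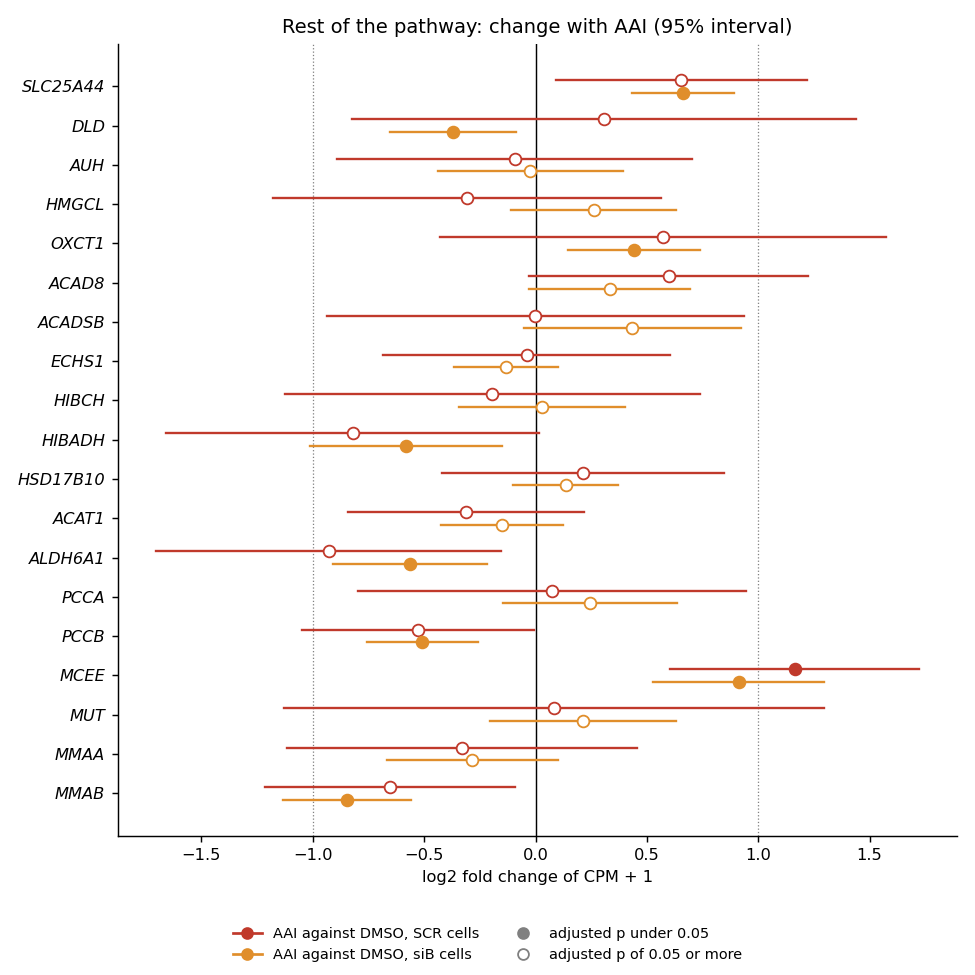
Change with AAI of the 19 further pathway genes tested, as a log2 fold change of CPM + 1 (horizontal axis) with 95% confidence intervals from limma, in SCR and siB cells; filled points have an adjusted p under 0.05. MCEE is filled in both, at 1.16 and 0.91, and the other 7 filled genes are so in siB cells.

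KLF6 was read for reference. It stood at 198, 158 and 192 CPM in SCR DMSO and 115, 183 and 225 CPM in SCR AAI, which overlapped (log2 change -0.11, adjusted p = 0.82). In siB cells it stood at 194, 162 and 146 CPM with DMSO and 79.0, 129 and 114 CPM with AAI, and it fell by 0.65 (adjusted p = 0.013 in limma, or 0.061 with all 4 groups in the fit). Between the AAI groups the log2 difference of KLF6 was -0.67 (adjusted p = 0.11 in limma, or 5.9e-05 with the replicate block, which is likely too small). BCKDK and BCKDHB, the members with the largest decreases, were below their DMSO range in every SCR AAI library while KLF6 overlapped. In siB cells KLF6, BCKDK and BCKDHB were each below their DMSO range in every AAI library. No relation between them was tested.

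The median change over all genes differed by gene span. With AAI in SCR cells the median log2 change was 0.21 over 6292 genes under 30 kb, 0.26 over 4355 genes of 30 to 100 kb and -0.09 over 2554 genes over 100 kb, and without SCR DMSO replicate 2 it was 0.21, 0.07 and -0.37. In siB cells it was 0.05, 0.19 and -0.03. BCKDHB, over 100 kb, and BCKDK, under 30 kb, were both far below the median of their class, at -1.23 and -1.27 in SCR and -1.28 and -1.60 in siB. Of the other long members BCAT1 (139.1 kb) was at -0.77 in SCR and -0.26 in siB, and MCCC1 (100.9 kb) at -0.27 and -0.15. The part of span in these changes was not tested.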

How the data were processed

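The 10 members, the pathway list and the marker lists were chosen with earlier results of these data known. Paired-end reads of poly-A RNA were aligned by the authors to hg38 and summed by gene on a UCSC annotation, using BioJupies. Which aligner was used, and whether strand was, are not given in the sources used here. The authors deposited 1 table of log10 values, log10 of CPM plus 1, for 35238 genes in 12 libraries, with 28 gene names turned into dates. CPM was recovered as 10 to the deposited value, minus 1. Whole reads were recovered for 100% of values (within 0.05 of a whole number), and no replicates were copies (chi-square per degree of freedom at least 4.38).

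Each pair of groups was fitted alone in R 4.3.3 with limma 3.58.1 (lmFit, eBayes with trend) on log2(CPM + 1), over genes that reached a CPM of 1 in 3 or more of the fitted libraries, with Benjamini-Hochberg adjustment over all genes tested, at an adjusted p under 0.05. SE and 95% intervals are limma's. The interaction used all 12 libraries. The fits were also run on simulated counts with known changes. Those counts had 1 fixed spread and no replicate effect or deviant library, so they do not cover the spread seen in these libraries. Counts of reads were used in voom as an alternative. The other alternatives were a pseudocount of 0.1, other filters, median-ratio scaling, totals without the most variable abundant transcript, a shared spread, a replicate block and leaving out each library. Same-numbered libraries deviated together in SCR AAI against SCR DMSO (r of 0.34 to 0.47 over 15325 genes) and siB AAI against SCR AAI (0.29 to 0.61). Every pair was over 0.1, so blocked values stand beside several results of these comparisons. All members and KLF6 and POLR2A were named, with at most 6 other pathway genes that passed in a comparison, by size of change. Spans and canonical transcript lengths came from GENCODE release 44 on hg38 and promoter sequences from RefSeq on GRCh38.p14.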

Additional observations from a re-analysis of the deposited data

How the results depend on the processing

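The count of members that passed in SCR AAI against SCR DMSO was 1, and it became 3 with median-ratio scaling (BCAT1 and BCKDHB added), 3 with all 4 groups in the fit (BCKDHA and BCKDHB added) and 2 with the replicate block, where 13.2%, 26.7% and 21.1% of all genes passed, against 12.3% as reported. Leaving out 1 library gave 0 to 3, where 6.23% to 22.2% of genes passed. The 3 were without SCR DMSO replicate 2 (22.2%). In siB AAI against siB DMSO it was 4 (52.2% of all genes), and 6 with median-ratio scaling (BCKDHA and MCCC2 added, 53.8%). It was 2 with all 4 groups in the fit (34.5%) and 2 with the 2-fold limit (19.7%). Leaving out 1 library gave 3 to 7, where 40.4% to 56.1% of genes passed. The 7 were without siB DMSO replicate 1 (56.1%). In siB AAI against SCR AAI it was 1 (9.28% of all genes), 3 with the replicate block (28.9%) and 0 with the 2-fold limit (3.67%). Leaving out 1 library there gave 0 to 1, where 1.43% to 14.1% of genes passed. In siB DMSO against SCR DMSO and in the interaction it stayed 0 under every alternative run. Of 998 single values under alternatives, 905 kept their direction and side of the threshold, 35 no longer passed, 19 newly passed and 39 changed sign. Of the sign changes, 34 came from leaving out a library and all were in values that had not passed. Beyond those, PPM1K changed sign to -0.037 in SCR AAI against SCR DMSO and BCAT2 to -0.071 in siB DMSO against SCR DMSO, and BCAT2 to 0.040 and BCKDHB to 0.027 in the interaction, all with median-ratio scaling, and BCAT2 to -0.017 in siB DMSO against SCR DMSO with voom. The causes were not tested. Where leaving out 1 library changed the sign, the log2 values ran as follows. In SCR AAI against SCR DMSO they were BCAT2 -0.33 to 0.22, PPM1K -0.20 to 0.42, IVD -0.17 to 0.0078 and KLF6 -0.32 to 0.16. In siB AAI against siB DMSO they were BCAT1 -0.42 to 0.027, and in siB AAI against SCR AAI BCAT1 -0.013 to 0.19, BCAT2 -0.15 to 0.055 and PPM1K -0.082 to 0.21. In siB DMSO against SCR DMSO they were BCAT2 -0.27 to 0.28, BCKDHB -0.068 to 0.53, DBT -0.094 to 1.01, BCKDK -0.037 to 0.39, PPM1K -0.61 to 0.0094 and MCCC1 -0.016 to 0.49. The negative values of BCKDHB, DBT and MCCC1 there were those without SCR DMSO replicate 2. In the interaction they were BCAT2 -0.31 to 0.23, BCKDHB -0.36 to 0.24, DBT -0.72 to 0.39, MCCC1 -0.094 to 0.41 and MCCC2 -0.053 to 0.13. The values of 0.24 for BCKDHB and 0.39 for DBT were those without SCR DMSO replicate 2.

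Median-ratio scaling lowered the median log2 change of all genes from 0.18 to -0.01 in SCR AAI against SCR DMSO, a shift of 0.19, and by 0.11 in siB AAI against siB DMSO. It moved the calls over all genes in SCR cells from 1277 raised and 478 lowered to 1067 and 810. BCKDK was at -1.47 there in SCR cells. The replicate block raised the calls over all genes in siB AAI against SCR AAI from 820 raised and 567 lowered to 2268 and 2057, and in SCR AAI against SCR DMSO from 1277 and 478 to 2086 and 911. In siB AAI against SCR AAI the lowest adjusted p in limma went from 5.8e-04 to 2.1e-40 with the block, so its blocked p-values are likely too small. In siB AAI against siB DMSO (r of 0.03 to 0.21) and siB DMSO against SCR DMSO (r of -0.19 to 0.73) not every same-numbered pair was over 0.1. In siB DMSO against SCR DMSO r was 0.73, 0.59 and -0.19 for replicates 1, 2 and 3. The block gave 5 members (57.6% of all genes) in siB AAI against siB DMSO and 0 members (0%) in siB DMSO against SCR DMSO. In these comparisons not every library correlated best with its own number. The medians by gene span without SCR DMSO replicate 2 were chosen after seeing the data.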
